A study of Mus musculus with 2 samples.

Results

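The matrix metalloproteinases Mmp2, Mmp3, Mmp9, Mmp12, Mmp13, Mmp14 and Mmp19 and the inhibitors Timp1, Timp2 and Timp3 were chosen by symbol, and all 10 were found among the 55536 gene entries of the deposited tables. Polyadenylated RNA was measured in mouse macrophages of the strain C57BL/6J, which are phagocytes grown in culture from bone marrow. All cells received Lipid A, the lipid anchor of bacterial lipopolysaccharide and the ligand of Tlr4, at 100 ng/mL for 12 h, were washed for 12 h, and were given the same dose again for 30 min. The free-text label of the samples says Lipid A, while their treatment label says lipoprotein A. The only group held 2 libraries, replicate 2 and replicate 1, made from separate biosamples under a shared donor record that are not stated to be separate animals, and their sex and age were not collected. No untreated library was analysed here, so each value describes the restimulated cells and none describes a response to Lipid A.

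Matrix metalloproteinases are zinc-dependent enzymes that cut collagens, elastin and other matrix proteins as well as cytokines and receptors at the cell surface. They are made as inactive precursors, in which a cysteine of the propeptide holds the catalytic zinc until the propeptide is cut off, and Timp proteins block the active enzymes by placing their amino end in the catalytic cleft. In macrophages they serve migration, matrix turnover and the release of cytokines from the membrane. Mmp14, an enzyme anchored in the plasma membrane, also activates the precursor of Mmp2, with Timp2 as the link between them.

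All 7 enzymes share the zinc-binding stretch of the catalytic domain, which is shown here because it defines the family. The capitals mark the codons of the 3 zinc-binding histidines. The sequences were read 5′ to 3′ from GENCODE M21 transcripts of the build mm10 (GRCm38), all on the plus strand.
Mmp14: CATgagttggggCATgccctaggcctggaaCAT
Mmp2: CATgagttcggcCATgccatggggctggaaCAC
Mmp9: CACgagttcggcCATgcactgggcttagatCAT
Mmp13: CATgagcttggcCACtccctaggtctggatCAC
Mmp12: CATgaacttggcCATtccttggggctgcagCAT
Mmp3: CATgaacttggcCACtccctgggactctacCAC
Mmp19: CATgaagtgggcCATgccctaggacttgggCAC

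Of these 33 bases, 16 were the same in all 7 genes. The stretch was found by a pattern that fixes the histidines, a glutamate and a glycine. Part of the identity was thus set by the search, and it describes this stretch alone. Identity between pairs ran from 60.6% for Mmp3 and Mmp9 to 81.8%, which was reached by Mmp13 with Mmp3 and by Mmp14 with Mmp2. The stretch lies in exon 8 of 13 in both gelatinases, at chr8:92839279-92839311 in Mmp2 and at chr2:164951133-164951165 in Mmp9. It lies in exon 5 of the other enzymes, at chr14:54437627-54437659 in Mmp14, chr9:7276573-7276605 in Mmp13, chr9:7352914-7352946 in Mmp12, chr9:7449775-7449807 in Mmp3 and chr10:128795673-128795705 in Mmp19.

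The propeptide stretch with the cysteine that holds the zinc was also found in all 7 enzymes, and it is shown for the most and the least abundant of them. The capitals mark the cysteine codon. The stretch spans chr14:54436151-54436171 in Mmp14 and chr9:7447095-7447115 in Mmp3.
Mmp14: cctcgcTGTggtgttccggat
Mmp3: cccaggTGTggtgttcctgat

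The amino end of the mature inhibitors is the part that enters the enzyme's cleft. The capitals mark the codons of its 2 cysteines, at residues 1 and 3 of the mature protein. It lies at chr11:118354989-118355012 on the minus strand in exon 1 of Timp2, at chrX:20871111-20871134 on the plus strand in exon 2 of Timp1 and at chr10:86300923-86300946 on the plus strand in exon 1 of Timp3.
Timp2: TGCagcTGCtccccggtgcacccg
Timp1: TGTagcTGTgccccaccccaccca
Timp3: TGCacaTGCtctcccagccatccc

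Levels are given as TPM, an abundance corrected for transcript length, from the alignment-derived gene table. The libraries held 30780681 counts in replicate 2 and 41938419 counts in replicate 1, and where none is seen the upper limit of 3 counts corresponds to 0.0975 CPM in replicate 2 and 0.0715 CPM in replicate 1. These limits and the intervals below reflect counting error alone. Genes with at least 1 TPM in both libraries were called detected. By this rule 8 of the 10 genes were detected, against 48.7% of the 22028 protein-coding genes. Timp2 and Mmp14 reached 100 TPM in both libraries, as did 5.56% of protein-coding genes. Mmp3 and Mmp9 stayed under 1 TPM.

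In mm10 the enzyme genes lie at chr14:54431612-54445364 (Mmp14, ENSMUSG00000000957.11), chr8:92827291-92853420 (Mmp2, ENSMUSG00000031740.8), chr2:164940780-164955850 (Mmp9, ENSMUSG00000017737.2), chr9:7272514-7283331 (Mmp13, ENSMUSG00000050578.10), chr9:7344381-7369499 (Mmp12, ENSMUSG00000049723.14), chr9:7445822-7455975 (Mmp3, ENSMUSG00000043613.8) and chr10:128790910-128800824 (Mmp19, ENSMUSG00000025355.7), all on the plus strand. The inhibitor genes lie at chr11:118301069-118355740 on the minus strand (Timp2, ENSMUSG00000017466.9), and on the plus strand at chrX:20870166-20874735 (Timp1, ENSMUSG00000001131.11) and chr10:86300372-86349506 (Timp3, ENSMUSG00000020044.13).

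**Figure D1:**
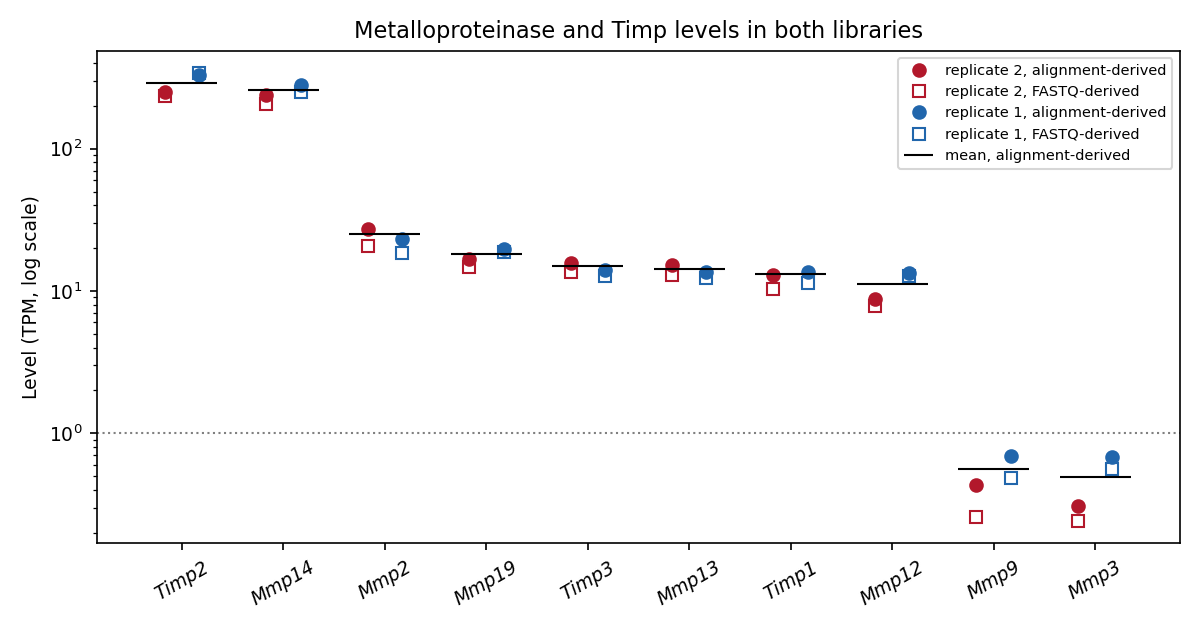
Level of each metalloproteinase and Timp gene in TPM on a log axis, with alignment-derived values as filled circles, FASTQ-derived values as open squares, replicate 2 in red left of replicate 1 in blue, and a bar at the alignment-derived mean. Timp2 and Mmp14 lay at 205 TPM or higher, 6 genes lay between 7.83 and 27.4 TPM, and Mmp9 and Mmp3 lay below the dotted line at 1 TPM.

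Mmp14 carried most of the metalloproteinase RNA. It had 239 TPM in replicate 2 and 279 TPM in replicate 1, a mean of 259 ± 27.8 TPM (SD, n = 2, as in all means here), from 11583 and 17969 counts. It made up 77.7% of the summed TPM of the 7 enzymes in replicate 2 and 79.6% in replicate 1. Over all 23 Mmp genes its share was 71.8% in replicate 2 and 72.4% in replicate 1. The share thus differed by less than 2 percentage points between the libraries.

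The gelatinases, which cut denatured collagen and the collagen of basement membranes, differed widely in level. Mmp2 had 27.4 TPM in replicate 2 and 23.3 TPM in replicate 1, a mean of 25.3 ± 2.91 TPM from 1453 and 1615 counts. Mmp9, the gelatinase stored in neutrophil granules and also secreted by macrophages, had 0.43 TPM in replicate 2 and 0.69 TPM in replicate 1, from 19 and 44 counts. The lower Mmp2 library thus lay far above the higher Mmp9 library.

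The secreted collagenase, elastase and stromelysin lie together on chromosome 9. Mmp13, the main interstitial collagenase of rodents, had 15.1 TPM in replicate 2 and 13.6 TPM in replicate 1, a mean of 14.4 ± 1.10 TPM from 771 and 914 counts. Mmp12, the macrophage elastase, had 8.75 TPM in replicate 2 and 13.5 TPM in replicate 1, a mean of 11.1 ± 3.34 TPM from 278 and 558 counts. Its spread was the widest relative to its mean among the 8 detected genes. Mmp3, the stromelysin that activates other precursors, had 0.31 TPM in replicate 2 and 0.68 TPM in replicate 1, from only 10 and 29 counts. Mmp19, a secreted enzyme that acts on basement membrane proteins, had 16.7 TPM in replicate 2 and 19.9 TPM in replicate 1, a mean of 18.3 ± 2.25 TPM from 982 and 1542 counts.

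Among the inhibitors Timp2 was far ahead of the others. It had 252 TPM in replicate 2 and 332 TPM in replicate 1, a mean of 292 ± 56.7 TPM from 10926 and 20333 counts, which was 89.7% of the summed Timp TPM in replicate 2 and 92.3% in replicate 1. Timp3, which binds to the matrix and also blocks Adam17, had 15.8 TPM in replicate 2 and 14.0 TPM in replicate 1, a mean of 14.9 ± 1.30 TPM from 1499 and 1744 counts. Timp1, a soluble inhibitor of most secreted metalloproteinases, had 13.0 TPM in replicate 2 and 13.5 TPM in replicate 1, a mean of 13.3 ± 0.382 TPM from 159 and 223 counts. Timp1 had the smallest spread of the 10 genes relative to its mean. Timp4 had 0 counts in replicate 2 and 2 counts in replicate 1.

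In order of mean TPM the genes were Timp2, Mmp14, Mmp2, Mmp19, Timp3, Mmp13, Timp1, Mmp12, Mmp9 and Mmp3. Neighbours whose values overlapped across the 2 libraries were Timp2 and Mmp14, Timp3 and Mmp13, Timp1 and Mmp12, and Mmp9 and Mmp3. Within each library these pairs kept the same order, which is weak support with 2 libraries. Mmp9 and Mmp3 had 0.69 and 0.68 TPM in replicate 1. The other neighbours did not overlap in these values, although with 2 libraries a gap is weakly supported. In the FASTQ-derived table Mmp2 had 20.8 TPM in replicate 2 and 18.5 TPM in replicate 1, and Mmp19 had 14.7 and 18.9 TPM. Their order thus reversed in replicate 1. It also reversed there for Timp1 and Mmp12, at 11.4 and 12.8 TPM, and for Mmp9 and Mmp3, at 0.481 and 0.556 TPM. These orders were therefore not resolved. The summed TPM of the 3 inhibitors over that of the 7 enzymes was 0.911 in replicate 2 and 1.03 in replicate 1 (280.6 against 308.1 TPM, and 359.5 against 350.2 TPM). In the FASTQ-derived tables it was 0.989 in replicate 2 and 1.15 in replicate 1. Without Timp2-202, a short and incompletely annotated transcript described below, it was 0.531 in replicate 2 and 0.630 in replicate 1, and 0.511 and 0.604 in the FASTQ-derived tables. The size of the inhibitor sum next to that of the enzymes thus rested on that transcript.

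**Figure D2:**
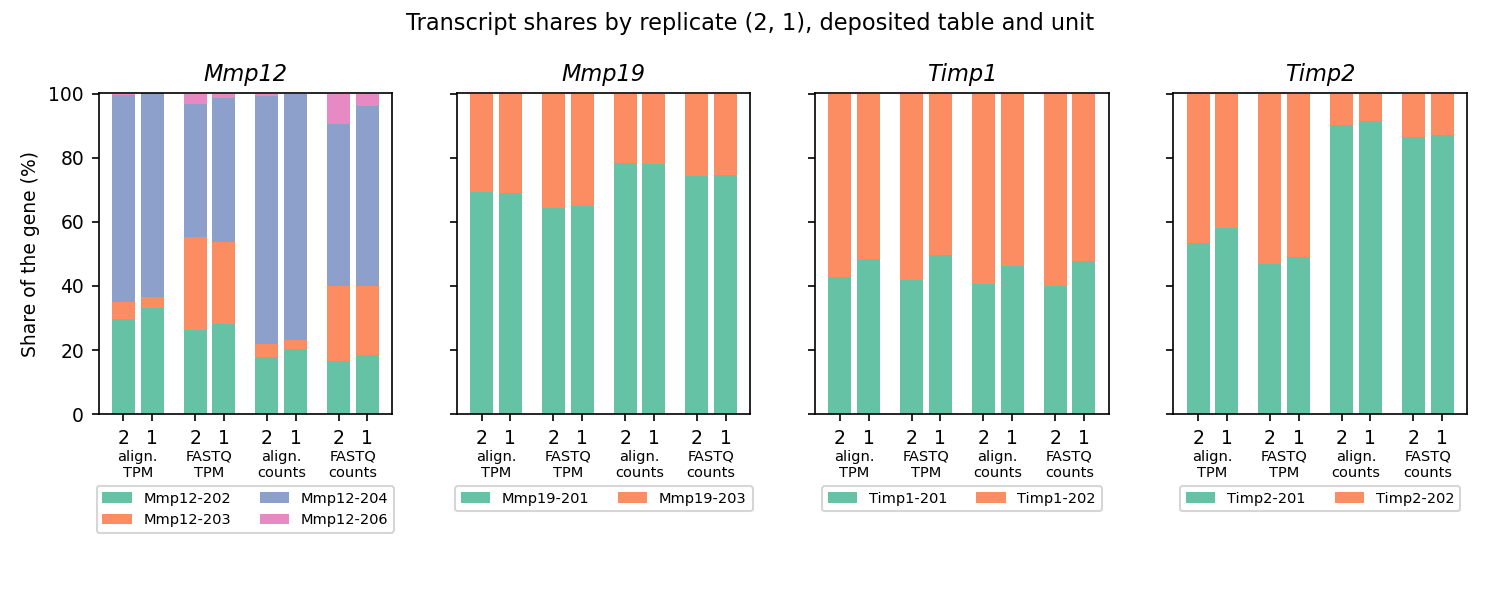
Share of each gene's signal given to its transcripts, in percent, for Mmp12, Mmp19, Timp1 and Timp2, with replicate 2 left of replicate 1 in each pair, for alignment-derived and FASTQ-derived TPM and counts. Transcripts with at least 1% in any bar are drawn. Timp2-202 took 41.9 to 53.2% of Timp2 by TPM and 8.58 to 13.5% by counts.

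The rank of Timp2 over Mmp14 rested on a short transcript. Timp2-201, the full coding transcript, had 134.85 TPM in replicate 2 and 193.01 TPM in replicate 1. The amino-end stretch shown above was not found near the start of the annotated coding part of Timp2-202. This transcript of 718 bases, whose annotated 3′ end is incomplete, had 116.95 TPM in replicate 2 and 138.96 TPM in replicate 1. It held only 9.83% of the Timp2 counts in replicate 2 and 8.58% in replicate 1, but 46.5% and 41.9% of its TPM, since TPM divides by length. Mmp14-201 alone had 232 TPM in replicate 2 and 274 TPM in replicate 1, above Timp2-201 in both libraries.

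The largest share of the Mmp12 signal went to a transcript whose annotated coding part lacks the zinc-binding stretch. Mmp12-204, annotated as a target of nonsense-mediated decay, had 64.6% of the gene's TPM in replicate 2 and 63.5% in replicate 1 in the alignment-derived table, and 41.5% and 45.0% in the FASTQ-derived table. Its exons do hold the histidine codons shown above, outside that part. Mmp12-201, the principal coding transcript, was listed at 0 in both libraries of both tables. Mmp12-202, a coding transcript that holds the histidine codons and has 6 exons, had 29.8% in replicate 2 and 33.1% in replicate 1 in the alignment-derived table. Mmp12-203, whose start lies upstream, had 5.25% in replicate 2 and 3.34% in replicate 1 there, but 28.9% and 25.6% in the FASTQ-derived table. The division among Mmp12 transcripts thus depended on the table.

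The other genes varied in how far they were divided. Mmp13-201, Mmp3-201, Mmp14-201 and Timp3-201 each had at least 90% of their gene's TPM in both libraries of both tables. Mmp19 was split between the coding transcripts Mmp19-201 and Mmp19-203, with 69.2% and 30.8% in replicate 2 and 69.1% and 30.9% in replicate 1. The first of these had 64.4% in replicate 2 and 65.0% in replicate 1 in the FASTQ-derived table. Timp1-202 had 57.2% in replicate 2 and 51.5% in replicate 1, and the rest went to Timp1-201, which has a coding part of the same 615 bases. Mmp2-201 had 86.8% of Mmp2 in replicate 2 and 85.0% in replicate 1, against 97.8% and 99.1% in the FASTQ-derived table. The noncoding Mmp2-202 had 3.25% in replicate 2 and 12.0% in replicate 1, and was listed at 0 in the FASTQ-derived table. Of the low Mmp9 signal, Mmp9-201 had 60.5% in replicate 2 and 69.6% in replicate 1 and the noncoding Mmp9-204 had the rest, whereas the FASTQ-derived table gave at least 99.9% to Mmp9-201.

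The sources used here do not state whether counting took account of strand, so reads from bases that exons of different genes share cannot be told apart. Mmp19 shares 789 exonic bases with Tmem198b on the opposite strand, which had 225 counts in replicate 2 and 329 counts in replicate 1. It shares 212 more with Gm47093, which had 1 count in replicate 2 and 0 counts in replicate 1. Timp3 lies inside Syn3 and shares 1733 exonic bases with it, and Syn3, on the opposite strand, had 5 counts in replicate 2 and 2 counts in replicate 1. Mmp12 shares 157 exonic bases with Mmp1b, which had 0 counts in both libraries. Of these 4 overlapping genes Tmem198b thus had the most counts. Timp1 lies inside Syn1, which runs on the opposite strand and had 562 counts in replicate 2 and 1042 counts in replicate 1, but the annotated exons of Timp1 and Syn1 share 0 bases. The spans of Timp2 and Cep295nl also overlap, with 0 exonic bases shared.

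**Figure D3:**
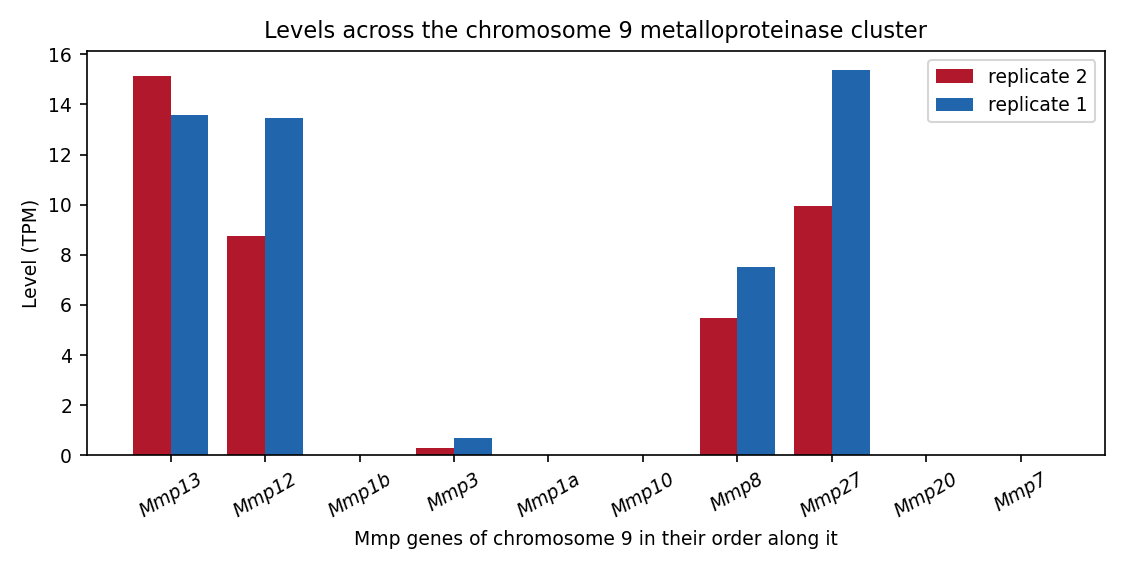
Level in TPM of the 10 Mmp genes of chromosome 9, in their order along it, with replicate 2 in red left of replicate 1 in blue and no error bars. Mmp13, Mmp12, Mmp8 and Mmp27 lay between 5.46 and 15.4 TPM, and the other 6 lay at or below 0.68 TPM.

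The cluster on chromosome 9 held 10 Mmp genes within 427 kb, from 7272514 to 7699585 in mm10. In their order these were Mmp13, Mmp12, Mmp1b, Mmp3, Mmp1a, Mmp10, Mmp8, Mmp27, Mmp20 and Mmp7. Detected and undetected genes were interspersed along it. Mmp8, the collagenase of neutrophils, had 5.46 TPM in replicate 2 and 7.51 TPM in replicate 1 from 249 and 453 counts. Mmp27 had 9.94 TPM in replicate 2 and 15.4 TPM in replicate 1 from 322 and 644 counts. Mmp10 had 0 counts in replicate 2 and 1 count in replicate 1, while Mmp1b, Mmp1a, Mmp20 and Mmp7 had 0 counts in both libraries.

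Promoters of cluster genes are shown because they share motifs, while Mmp13 and Mmp12 were detected and Mmp3 was not. RefSeq windows of the build GRCm38.p6, from 250 bases before to 50 bases after the annotated start, were matched for 7 of the 10 genes, with 8 windows in all. No window was matched for Mmp2, Mmp9 and Mmp19. The motif TGANTCA, the core bound by AP-1 (dimers of Fos and Jun proteins), reads the same on both strands and was found in 7.81% of all 32817 windows. TATAAA, searched on both strands, was found in 13.6% of windows, and both motifs in 1.54%. The first 80 bases below lie before the start and the last 20 from it on, and capitals mark both motifs, which do not overlap.
Mmp13: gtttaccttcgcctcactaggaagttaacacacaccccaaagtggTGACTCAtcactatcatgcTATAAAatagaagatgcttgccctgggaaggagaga
Mmp12: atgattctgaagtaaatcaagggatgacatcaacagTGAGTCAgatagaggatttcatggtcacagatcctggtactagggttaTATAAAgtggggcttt
Mmp3: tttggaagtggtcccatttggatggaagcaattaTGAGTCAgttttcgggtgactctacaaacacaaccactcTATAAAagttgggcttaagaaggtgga

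These stretches lie on the plus strand at chr9:7272434-7272533 for Mmp13, chr9:7347294-7347393 for the downstream start of Mmp12 and chr9:7445742-7445841 for Mmp3. TATAAA began 16 bases before the annotated start in Mmp13 and 7 bases before it in Mmp3, but after it in Mmp12. TGANTCA began 35, 44 and 46 bases before the start in Mmp13, Mmp12 and Mmp3. The upstream window of Mmp12 and the windows of Mmp14, Timp1, Timp2 and Timp3 did not hold these letters. In the same cluster TGANTCA also stood in windows of Mmp1a, Mmp1b, Mmp10, Mmp20 and Mmp7, which had 0 or 1 count per library, and not in those of Mmp8 and Mmp27, which were detected. Windows with the motif thus belonged to detected and to undetected genes of the cluster. Fos had 359 TPM in replicate 2 and 163 TPM in replicate 1, and Jun had 103 and 79.0 TPM.

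The libraries were compared by the log2 ratio of scaled counts, replicate 2 over replicate 1, with an exact 95% interval. Among 12471 genes with at least 20 counts in each library, 2.48% differed at least 2-fold, with 1.96% higher and 0.521% lower in replicate 2, and the median ratio was -0.02. The interval lay wholly above 0 for 23.3% of genes and wholly below 0 for 31.2%, so that 54.5% lay on one side. An interval clear of 0 is therefore common between these libraries. With 1 library on each side there was no test.

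None of the 8 metalloproteinase and Timp genes with enough counts differed 2-fold. Higher in replicate 2, with intervals above 0, were Mmp2 at 0.30 (0.20 to 0.40), Timp3 at 0.24 (0.13 to 0.34) and Mmp13 at 0.21 (0.07 to 0.35). Lower in replicate 2, with intervals below 0, were Mmp12 at -0.55 (-0.76 to -0.34), Timp2 at -0.44 (-0.48 to -0.41), Mmp19 at -0.20 (-0.31 to -0.08) and Mmp14 at -0.18 (-0.21 to -0.15). The interval of Timp1, at -0.03 (-0.34 to 0.27), spanned 0. The median over the 8 genes was -0.11. The middle 50% of all genes lay between -0.21 and 0.18. Mmp14, Mmp19 and Timp1 fell inside that range, while Mmp12 stood farthest out, with 96.1% of genes having a higher ratio. Mmp9 at -0.74 (-1.62 to 0.05) and Mmp3 at -1.04 (-2.28 to -0.00) had too few counts in replicate 2 for the 2-fold rule.

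**Figure D4:**
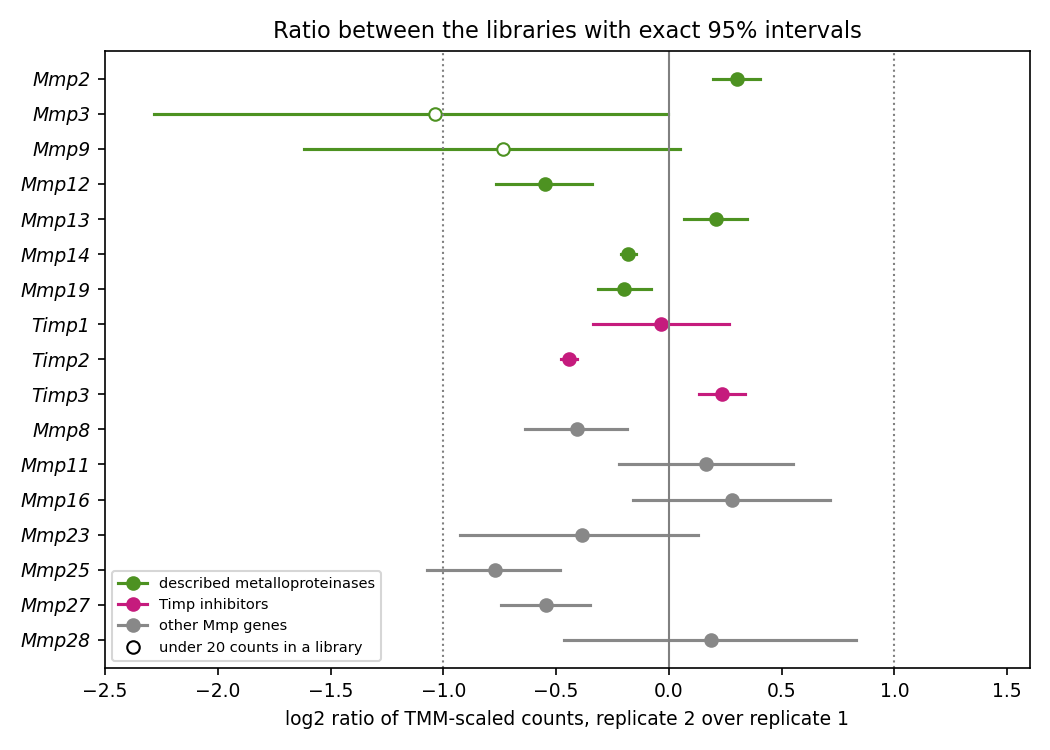
Log2 ratio of TMM-scaled counts, replicate 2 over replicate 1, for the 10 described genes and the other Mmp genes with at least 20 counts in each library; bars are exact 95% intervals and dotted lines mark 2-fold. Filled points lay between -0.77 and 0.30, and the open points Mmp3 and Mmp9 had wide intervals.

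Of the 16 other Mmp genes, 6 were detected and 5 had 0 counts in both libraries. Of the 7 with enough counts, 3 were higher and 4 lower in replicate 2, none by 2-fold, and their median ratio was -0.38. Mmp27 had the highest level of these, and its ratio was -0.55 (-0.74 to -0.35), next to that of Mmp12. Mmp8 was at -0.41 (-0.64 to -0.18). Mmp23 had 3.31 TPM in replicate 2 and 4.52 TPM in replicate 1 and a ratio of -0.38 (-0.93 to 0.13). Mmp25, an enzyme of leukocytes anchored in the membrane, had 1.51 TPM in replicate 2 and 2.69 TPM in replicate 1, and its ratio of -0.77 (-1.07 to -0.48) was the lowest of the list. Reck, a membrane-anchored inhibitor of metalloproteinases, had 1.47 TPM in replicate 2 and 1.34 TPM in replicate 1.

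Genes that activate, place or clear the enzymes were mostly present, with 12 of 14 detected. Furin, which cuts the propeptide of Mmp14, had 29.1 TPM in replicate 2 and 28.3 TPM in replicate 1. Plau, which turns plasminogen into plasmin, had 44.8 TPM in replicate 2 and 41.3 TPM in replicate 1, and its receptor Plaur had 7.76 and 5.58 TPM. Plg, the plasminogen gene itself, had 0 counts in both libraries. Bsg, a surface protein known to induce metalloproteinases in neighbouring cells, had 300 TPM in replicate 2 and 316 TPM in replicate 1. Lrp1, the endocytic receptor that clears Mmp and Timp complexes, had 201 TPM in replicate 2 and 238 TPM in replicate 1. Cd44, a hyaluronan receptor that holds Mmp14 and Mmp9 at the cell surface, had 63.7 TPM in replicate 2 and 75.2 TPM in replicate 1. Of the 13 genes with enough counts, 7 were higher and 6 lower in replicate 2, none by 2-fold, and their median ratio was 0.06.

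The related Adam enzymes, membrane proteases that shed cytokines and receptors, and their Rhbdf partners were detected for 8 of 9 genes. Adam17, the main Tnf sheddase and a target of Timp3, had 58.5 TPM in replicate 2 and 59.7 TPM in replicate 1, a ratio of 0.03 (-0.02 to 0.09). Adam15 had 88.5 TPM in replicate 2 and 91.0 TPM in replicate 1. Adam8, a protease of myeloid cells, was the only gene of the list past 2-fold, with 66.4 TPM in replicate 2 and 144 TPM in replicate 1 and a ratio of -1.09 (-1.14 to -1.04). The secreted Adamts enzymes were low. Of these, 4 of 8 were detected, led by Adamts1 with 6.25 TPM in replicate 2 and 4.89 TPM in replicate 1, and 7 were higher in replicate 2, none by 2-fold.

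Matrix genes whose products the enzymes cut were all detected, 13 of 13. Spp1, which encodes osteopontin, had 1143 TPM in replicate 2 and 1195 TPM in replicate 1. Col1a1 and Col1a2, the chains of type I collagen, had 243 and 186 TPM in replicate 2 and 214 and 161 TPM in replicate 1. Eln, the elastin gene, had 11.8 TPM in replicate 2 and 10.1 TPM in replicate 1. In replicate 2, 12 of the 13 were higher, none by 2-fold, with a median ratio of 0.25, and Spp1 at -0.02 was the exception.

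**Figure D5:**
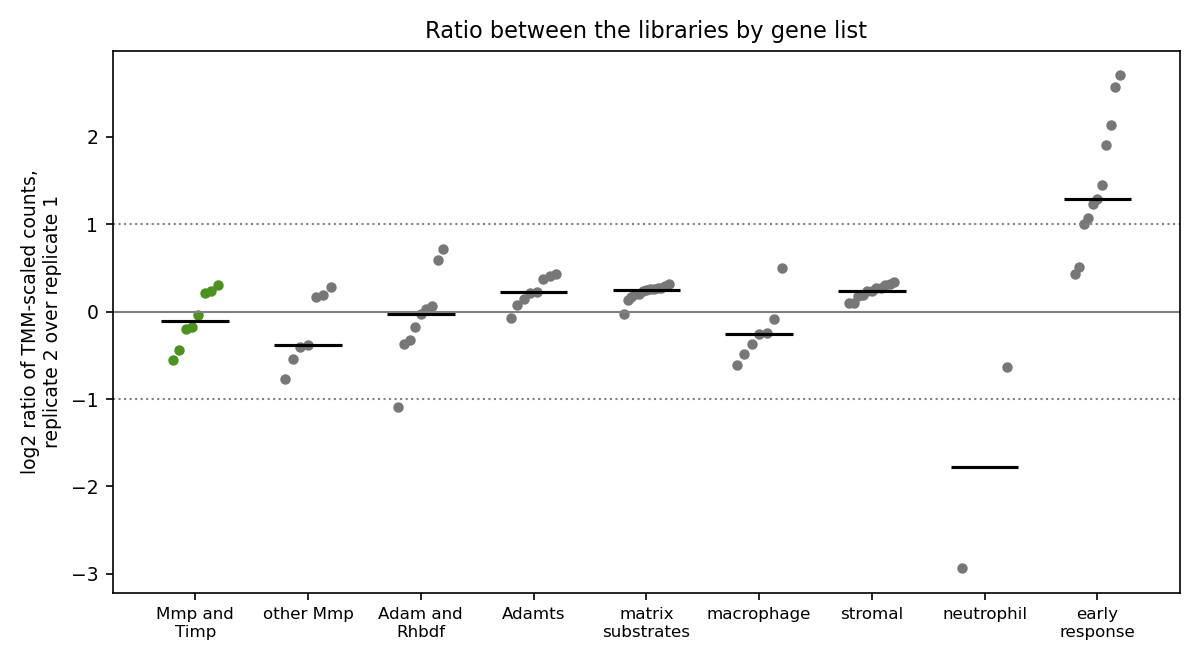
Log2 ratio of TMM-scaled counts, replicate 2 over replicate 1, for each gene with at least 20 counts in each library, by gene list; points are genes, bars are list medians and dotted lines mark 2-fold. The Mmp and Timp genes lay within 2-fold around a median of -0.11, while 9 of 11 early response genes lay above the upper dotted line.

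Markers of cell types were set beside these ratios. All 7 macrophage markers were detected, and Lyz2, Cd68 and Adgre1 led them. Of these 7, 6 were lower in replicate 2 and Lyz2 was higher at 0.50, and the median ratio of the 7 was -0.25. The list summed to 18000 TPM in replicate 2 and 16270 TPM in replicate 1. All 11 stromal markers, genes of fibroblasts such as Col1a1 and Col3a1, were detected as well, and 4 of them are also among the 13 matrix genes above. They were higher in replicate 2 by 0.10 to 0.34, and summed to 810 TPM in replicate 2 and 713 TPM in replicate 1. Mmp2, Timp3 and Mmp13, at 0.21 to 0.30, lay in the range of the stromal ratios. That range also holds many other genes. Of all genes with enough counts, 34.3% lay above the lowest stromal ratio and 13.9% above the highest. Mmp12, Timp2, Mmp19 and Mmp14, at -0.55 to -0.18, lay in the range of the macrophage markers, which ran from -0.61 to 0.50 and so spanned all 8 genes. The part of stromal cells in the levels and ratios of the metalloproteinase and Timp genes was not tested. In bulk RNA, fewer cells of a type and less RNA per cell cannot be told apart.

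Neutrophils are a known source of Mmp8, Mmp9 and Mmp25, whose ratios were -0.41, -0.74 and -0.77, with an interval spanning 0 for Mmp9. The 11 neutrophil markers summed to 73.9 TPM in replicate 2 and 176 TPM in replicate 1, mostly from Lcn2 with 64.0 and 100 TPM. Lcn2, S100a9 and S100a8 were the 3 detected, at ratios of -0.63, -2.93 and -2.62. S100a8 had only 16 counts in replicate 2. S100a9 had 26 counts in replicate 2 and 277 counts in replicate 1, and the granule gene Ltf had 3 and 87 counts. Mpo and Elane had 0 counts in replicate 2, against 14 and 3 counts in replicate 1, and Ly6g had 0 counts in both. The part of neutrophils in these ratios was not tested. Endothelial markers summed to 24.9 TPM in replicate 2 and 11.8 TPM in replicate 1, and the difference between these sums came from Kdr, at 20.8 and 5.57 TPM. Pecam1 and Cdh5 ran the other way, with 203 and 41 counts in replicate 2 and 388 and 82 counts in replicate 1 and ratios of -0.48 and -0.54, and Tek and Emcn had at most 8 counts in a library. Osteoclast markers summed to 48.6 TPM in replicate 2 and 85.7 TPM in replicate 1, mostly from Acp5 with 39.5 and 79.5 TPM at a ratio of -0.98. Ctsk had 8.96 TPM in replicate 2 and 5.92 TPM in replicate 1 at a ratio of 0.64, while Calcr, Ocstamp, Dcstamp and Oscar had at most 5 counts in a library.

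Early response genes, which are known to rise within minutes of Tlr4 stimulation, also differed between the libraries. All 11 were higher in replicate 2. Their median ratio was 1.29, and 9 passed 2-fold. Tnf had 1198 TPM in replicate 2 and 451 TPM in replicate 1, Nfkbia had 566 and 237 TPM, and Junb had 398 and 205 TPM. The highest ratio of the 8 metalloproteinase and Timp genes with enough counts was that of Mmp2, at 0.30. Of all genes with enough counts, 16.0% lay above that value. Ribosomal RNA and mitochondrial genes took 5.60% of counts in replicate 2 and 2.60% in replicate 1. Leaving them out of the library sizes kept the median ratio of the 8 metalloproteinase and Timp genes at -0.11. Any other part of theirs in these ratios was not tested.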

How the data were processed

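The authors deposited an alignment-derived gene table and transcript table for each library, with expected counts, TPM and FPKM, and a FASTQ-derived transcript table with estimated counts and TPM, per the file headers. The labels name the build mm10. For the aligner, the quantification tool and the strand setting, a name or value was not given in the sources used here. Symbols, coordinates and transcript types came from GENCODE M21.

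The expected counts were rounded to whole numbers and scaled by TMM (edgeR 4.0.16, run in R 4.3.3). The ratio was replicate 2 over replicate 1 with 0.5 counts added. Exact Clopper-Pearson limits at 95% gave its interval. The scaling and the 2-fold rule were run on simulated counts, in which the changed genes differed by more than 2-fold. Smaller changes were not simulated. Alternatives were DESeq2 1.42.0 size factors, total counts, library sizes without ribosomal RNA and mitochondrial genes, FASTQ-derived values, FPKM, TPM over protein-coding genes, other minimums of counts and TPM, 5 counts added, and leaving out each library. Other steps ran in Python 3.11.15 with scipy 1.17.1, pandas 2.3.3 and numpy 2.4.6, and figures were drawn with matplotlib 3.10.9.

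The genes and lists were chosen with earlier results of these data known. The rule was to name all 10 members. In each list it also covered the 3 highest by TPM, those at least 2-fold apart and those known to act on a member. Not all of these were named. Left out were, for instance, Egr1, Fosb, Il1b, Cxcl2 and Ptgs2 among the early response genes past 2-fold. Some genes outside the rule were named after their values were seen. Motif positions count bases from the annotated start.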

Additional observations from a re-analysis of the deposited data

How the results depend on the processing

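No paired analysis was possible because both libraries belong to the only group. Without the minimum of 20 counts, 1 of the 10 genes, Mmp3, differed at least 2-fold, from 10 counts in replicate 2 and 29 counts in replicate 1, and 11.7% of all genes did. Under the other settings none did. The number of these genes called detected was 8 under each setting that was run, and that of other Mmp genes ranged from 4 at a minimum of 2 TPM to 7 at 0.5 TPM. Of 50 ratios recomputed under other settings, 48 stayed inside their interval and none changed sign. Those outside were Mmp14 at -0.22 and Timp2 at -0.49 with FASTQ-derived counts. The other settings behind these ratios reused the same counts with another scaling or added count. Their ratios were all but bound to stay inside the interval. Only the FASTQ-derived ratios of the 10 genes could thus show a dependence on how reads were counted. Of 20 levels recomputed from FASTQ-derived TPM or from TPM over protein-coding genes, 12 stayed within 1 SD. With 2 libraries, leaving out either is bound to stay within 1 SD and is not counted. The ratio of the Timp sum to the Mmp sum, with a mean of 0.968 over both libraries, was 1.07 from FASTQ-derived TPM, 0.581 without Timp2-202 and 0.558 with both, settings chosen after seeing the data. The FASTQ-derived means were lower by more than 1 SD for 6 genes, among them Mmp2 at 19.7 TPM and Mmp14 at 228 TPM, and TPM over protein-coding genes were higher by more than 1 SD for Mmp13 at 15.5 TPM and Timp1 at 14.3 TPM. Depth limited Mmp3 and Mmp9, each with under 50 counts per library.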
